A study of Oryza sativa Japonica Group with 22 samples.

Results

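Of 38866 rice genes, 20 were higher in every seed library that carried the sunflower albumin HaSSA than in any library without it. They were chosen by their own levels: the lowest level over 10 HaSSA libraries had to reach 1 CPM (reads per 1000000 counted reads, with libraries scaled by TMM, the trimmed mean of M-values) and 1.3 times the highest level over 12 other libraries. Of 30 genes within these limits, 10 were left out, 9 of them in a gene table of the study, which leaves 20. All 20 passed the filter on low counts and were among the 26821 genes tested. Os06g0225000 and Os12g0169300 passed only through their HaSSA libraries, and the other 18 also passed on the libraries without HaSSA alone. Milkripe seeds harvested 10 days after flowering were compared from 6 lines: the untransformed Taipei with 4 libraries, CGS with 5, SAT with 3, and the HaSSA lines SSA with 3, CGSxSSA with 4 and SATxSSA with 3. All groups share the Taipei background, the growth chamber and the seed stage. SSA carries HaSSA, an albumin rich in methionine and cysteine, with an ER retention signal under a wheat glutenin promoter. CGS carries AtD-CGS, a feedback-desensitized cystathionine gamma-synthase of Arabidopsis that makes a methionine precursor, and SAT carries EcSAT, the bacterial serine acetyltransferase that makes the carbon skeleton of cysteine, both sent to the chloroplast and driven by a maize ubiquitin promoter. CGSxSSA and SATxSSA are crosses with SSA as pollen donor, each from a pair of segregants. Each transgene is thus represented by 1 transformed line, so an effect of the transgene and of its insertion cannot be told apart, and every HaSSA library descends from the same SSA line.

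Storage proteins of the cereal endosperm are made on the rough ER, where chaperones such as BiP bind unfolded chains, lectin chaperones such as calnexin hold glycoproteins, and protein disulfide isomerases set the disulfide bonds. When unfolded proteins build up there, plant cells raise the transcripts of this machinery through the unfolded protein response, in which membrane-bound sensors activate bZIP transcription factors. Gene lists were taken from the study's table. Of 24 ER folding genes, 9 met the same limits as the 20 genes, against 0.112% of all genes tested. Of 13 sulfate transporter genes, 11 genes from sulfate to cysteine or PAPS and 15 OAS cluster homologs, 0 met them. At that share short lists would mostly give 0, so these counts of 0 are no result about those genes. The limits also require a high level in every SATxSSA library. The paper reports genes of each of the sulfate and OAS lists as raised in SSA and CGSxSSA but not in SATxSSA. The 9 include BiP1 (Os02g0115900), at 5.91 times the Taipei mean in SSA, 4.75 times in CGSxSSA and 3.55 times in SATxSSA, and the disulfide isomerase PDIL2-3 (Os09g0451500), at 4.98, 4.89 and 2.93 times. A minor BiP, BiP4 (Os05g0428600), stood at 224, 176 and 106 times a low Taipei mean of 0.80 CPM. Smaller differences were also among the 9, as for the calnexin Os04g0402100 at 2.28, 2.2 and 1.68 times. The study took these 24 genes from annotated families by their read level in these seeds. Their direction comes from the same libraries and is no independent evidence. The 20 genes described here have no name or function in the files, the paper or the reference table, and are given by their RAP identifiers only.

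The libraries held 29642343 to 41585957 counted reads, and TMM factors ran from 0.846 to 1.15. TMM factors were higher in HaSSA libraries (1.01 to 1.15) than in most others (0.846 to 1.02). Scaling by library size alone moved the median log2 difference of all tested genes between HaSSA and other libraries up by 0.18, so levels here are relative to TMM. Under TMM the selection required all 20 genes to have every HaSSA library above the others. The order also held under RLE scaling (DESeq-type size factors). It held under library size too, which moved the median of all tested genes in that direction. The same counts were used each time, so this is a description. A list of 4 starchy endosperm genes summed to 17900 to 48780 CPM in HaSSA libraries and to 67880 to 115900 CPM in the others, with no overlap. This list was planned around storage protein genes (glutelin, prolamin and globulin). The paper reports less glutelin subunit and alpha-globulin protein in HaSSA seeds, so the sum is no measure of endosperm tissue alone. Of each planned list only the genes given by identifier were used, since gene descriptions were not available. The 4 embryo and aleurone genes (1151 to 2515 against 1199 to 2596 CPM) and the 4 green tissue genes (2306 to 3313 against 2492 to 4041 CPM) overlapped, and no gene of the 3 lists was at 0 in any line. Reads not mapped to the rice genome made up 2.87% to 8.07% in HaSSA libraries and 0.63% to 0.92% elsewhere. The authors looked for transgene reads among these unmapped reads, so the share contains the reads of the transgenes, which were not separated here. SATxSSA replicate 1 stood apart, with 20.3% of reads outside genes against 11.8% to 14.9% in the other 21 libraries. The part of these differences in the results was not tested, and fewer cells of a type cannot be told apart from less RNA per cell in whole seeds.

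The limits admitted genes of very unequal separation. Os06g0225000 was the most separated, its lowest HaSSA library at 39.8 times its highest other library, followed by Os12g0169300 at 5.89 times, Os07g0661100 at 2.63 times, Os06g0593100 at 2.36 times and Os05g0187800 at 2.09 times. The last to be admitted were Os06g0150400 (1.35 times), Os04g0446300 (1.34 times, 44.7 against 33.3 CPM) and Os08g0519400 (1.303 times, 90.9 against 69.8 CPM). Just outside stood Os01g0209500 (1.297 times, 58.2 against 44.9 CPM), Os09g0556000 (1.294 times) and Os08g0440500 (1.286 times), so the boundary falls within a continuous run of genes. On the level limit, Os12g0111000 was left out at 0.82 CPM. Of all 26821 genes tested, 0.339% had every HaSSA library above every other library, and 0.112% also met both limits. The lowest HaSSA library belonged to SATxSSA for 17 of the 20 genes, to CGSxSSA for 2 and to SSA for 1. The highest other library was a CGS library for 11, a Taipei library for 6 and a SAT library for 3.

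**Figure D1:**
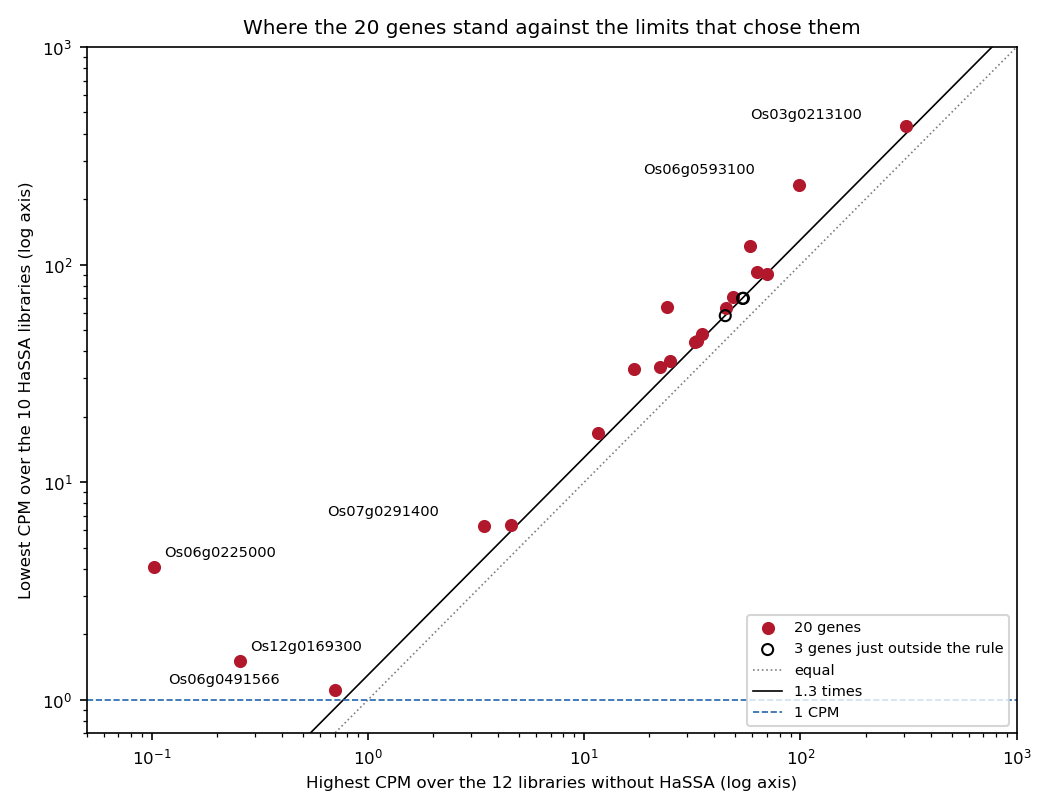
Each red point is 1 of the 20 genes, with its highest CPM over 12 libraries without HaSSA on the x axis and its lowest CPM over 10 HaSSA libraries on the y axis, both on log axes. Os06g0225000 and Os12g0169300 lie far above the line of 1.3 times, most other genes lie close to it, and the 3 open circles just below it are genes left out at 1.297, 1.294 and 1.286 times.

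A set of 4 genes had almost no reads without HaSSA or stood near 1 CPM there. Os06g0225000 was counted 1, 0, 2 and 2 times in the Taipei libraries, 0, 3, 0, 1 and 1 times in CGS and 0, 1 and 1 times in SAT. In SSA it was counted 262, 365 and 426 times, in CGSxSSA 237, 244, 145 and 198 times, and in SATxSSA 135, 183 and 333 times. The gene was thus near the detection limit in all 12 libraries without HaSSA, and a library with 0 reads allows up to 0.0885 to 0.0957 CPM at the limit of 3 counts. Against Taipei the pooled level was 255-fold in SSA (95% exact counting interval 109 to 786), 168-fold in CGSxSSA (71.7 to 518) and 148-fold in SATxSSA (63.3 to 459). These intervals cover counting error only and rest on 5 Taipei reads. A difference in this direction is what the selection required.

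The strand that is not assigned to Os06g0225000 behaved otherwise. Reads from the opposite strand numbered 12 to 21 per library in the 12 libraries without HaSSA and 8 to 29 in the 10 with it, so the groups overlapped. Pooled, 183 and 154 such reads gave a ratio of 0.94 between HaSSA and other libraries (95% exact counting interval 0.76 to 1.18). Without HaSSA 93.8% of all reads at this locus lay on the opposite strand, and with HaSSA 5.74% did. The difference therefore lay on 1 strand. The opposite-strand level in SATxSSA, 0.286 ± 0.0419 CPM (SD, n = 3), was below the 0.599 ± 0.228 CPM (SD, n = 3) in SSA and the 0.443 ± 0.082 CPM (SD, n = 4) in CGSxSSA, from 8 to 13 reads per library, and this difference was not tested.

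**Figure D2:**
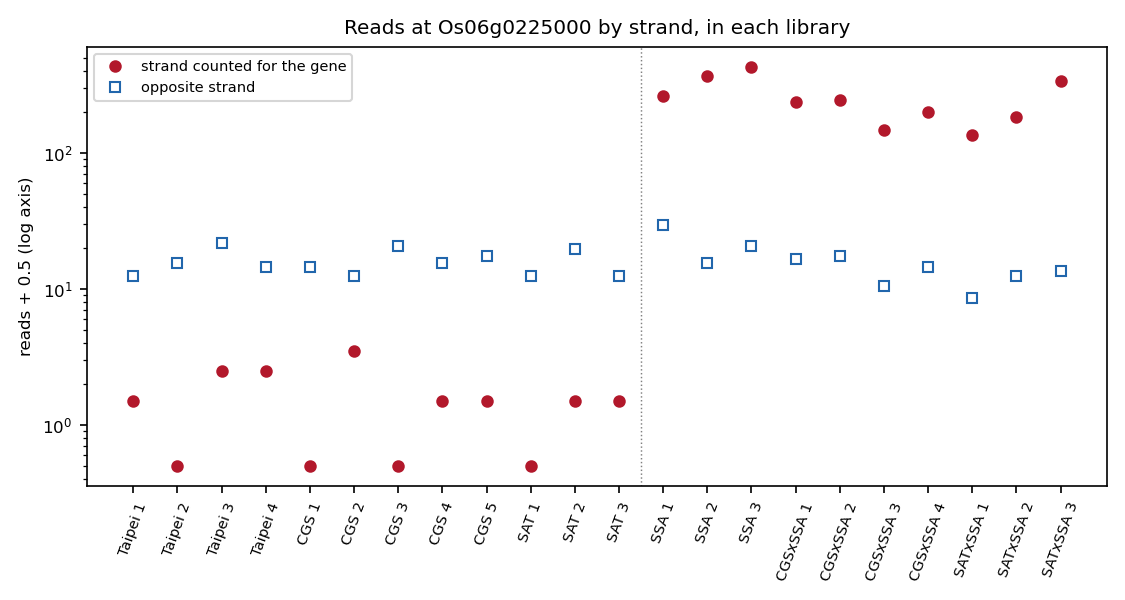
Reads at Os06g0225000 in each of the 22 libraries, plotted as reads + 0.5 on a log axis, with red circles for the strand counted for the gene and blue squares for the opposite strand. The red circles go from 0 to 3 reads left of the dotted line (no HaSSA) to 135 to 426 reads right of it, while the squares stay between 8 and 29 reads.

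Os12g0169300 was counted 5, 5, 4 and 2 times in Taipei, 6, 0, 0, 0 and 1 times in CGS and 8, 1 and 1 times in SAT. In HaSSA seeds its counts were 125, 114 and 154 in SSA, 122, 113, 115 and 101 in CGSxSSA, and 59, 56 and 94 in SATxSSA. SSA and CGSxSSA thus lay close together, at 3.63 ± 0.379 CPM (SD, n = 3) and 3.52 ± 0.183 CPM (SD, n = 4), while every SATxSSA library was lower, at 1.81 ± 0.321 CPM (SD, n = 3). Against Taipei the ratios were 29.7 (95% exact counting interval 18.1 to 52.5), 28.7 (17.5 to 50.7) and 14.9 (8.96 to 26.5). Here too the intervals cover counting error only, not the spread between plants, and rest on 16 Taipei reads. A difference in this direction is what the selection required. The log2 difference of SATxSSA against SSA was -1.003 (SE 0.35, adjusted p = 0.242).

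Os06g0491566 and Os07g0291400 were also far higher with HaSSA, but unevenly. Os06g0491566 stood at 0.0973, 0.061, 0.243 and 0.354 CPM in Taipei, at 0.236, 0.238, 0.0599, 0.197 and 0.105 CPM in CGS and at 0.701, 0.167 and 0.598 CPM in SAT. In HaSSA seeds it stood at 8.39, 5.68 and 22 CPM in SSA, at 1.88, 11.5, 10.8 and 6.75 CPM in CGSxSSA and at 1.11, 5.23 and 7.82 CPM in SATxSSA. In each cross replicate 1 was low, and in SSA replicate 3 was high. Os07g0291400 showed the same libraries at the extremes, with 25.1, 22.6 and 49.5 CPM in SSA, 9.3, 27.9, 30.4 and 23 CPM in CGSxSSA and 6.27, 22.9 and 25.8 CPM in SATxSSA. Its levels without HaSSA were 0.82 to 1.12 CPM in Taipei, 0.479 to 2.99 CPM in CGS and 0.5 to 3.42 CPM in SAT. For both genes SSA replicate 3 was the highest of all libraries, and CGSxSSA replicate 1 and SATxSSA replicate 1 were the lowest of their lines. The coefficient of variation of these 2 genes within a HaSSA line was 41.5% to 72.7%, whereas for the 16 genes described next it was 1.26% to 30.8%, with a median of 9.19%. The share of unmapped reads was also highest within SSA in replicate 3 (6.9%) and lowest within each cross in replicate 1 (4.81% in CGSxSSA, 2.87% in SATxSSA), and its part in this spread was not tested.

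The other 16 genes were read in every library and stood at a median over HaSSA libraries of 1.63 to 4.71 times the median over the others. Of these, 5 reached at least 3 times. Os06g0593100 lay at 233 to 373 CPM with HaSSA (median 316) and at 37.4 to 98.8 CPM without (median 67.1). Os07g0661100 lay at 63.8 to 118 CPM (median 80.1) against 16.8 to 24.3 CPM (median 21.2), with little spread in Taipei, 22.7 ± 1.43 CPM (SD, n = 4). Os05g0187800 lay at 122 to 210 CPM against 40.7 to 58.3 CPM, Os03g0293000 at 92.2 to 186 CPM against 35.2 to 63.3 CPM and Os06g0150400 at 44.2 to 128 CPM against 18.6 to 32.7 CPM. In Os06g0593100, Os05g0187800, Os03g0293000 and Os06g0150400 the highest library without HaSSA was a CGS library.

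A further 7 genes stood at 2 to 3 times. They were Os06g0622700 (33.2 to 53.6 against 12.7 to 17 CPM), Os06g0212900 (6.32 to 10.5 against 2.51 to 4.58 CPM), Os05g0490200 (33.7 to 58.8 against 16.2 to 22.4 CPM), Os02g0565200 (71.2 to 109 against 33.2 to 49 CPM), Os08g0278900 (36.1 to 62.4 against 15.6 to 25 CPM), Os01g0572700 (63.1 to 98.8 against 30.9 to 45.2 CPM) and Os12g0162400 (47.7 to 65.3 against 23.9 to 35 CPM). The other 4 genes stood under 2 times, namely Os09g0327400 (16.8 to 19.1 against 7.48 to 11.5 CPM), Os03g0213100 (435 to 665 against 235 to 308 CPM), Os04g0446300 (44.7 to 60.5 against 23.2 to 33.3 CPM) and Os08g0519400 (90.9 to 117 against 57.6 to 69.8 CPM). These distances are what the selection required and were not tested.

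**Figure D3:**
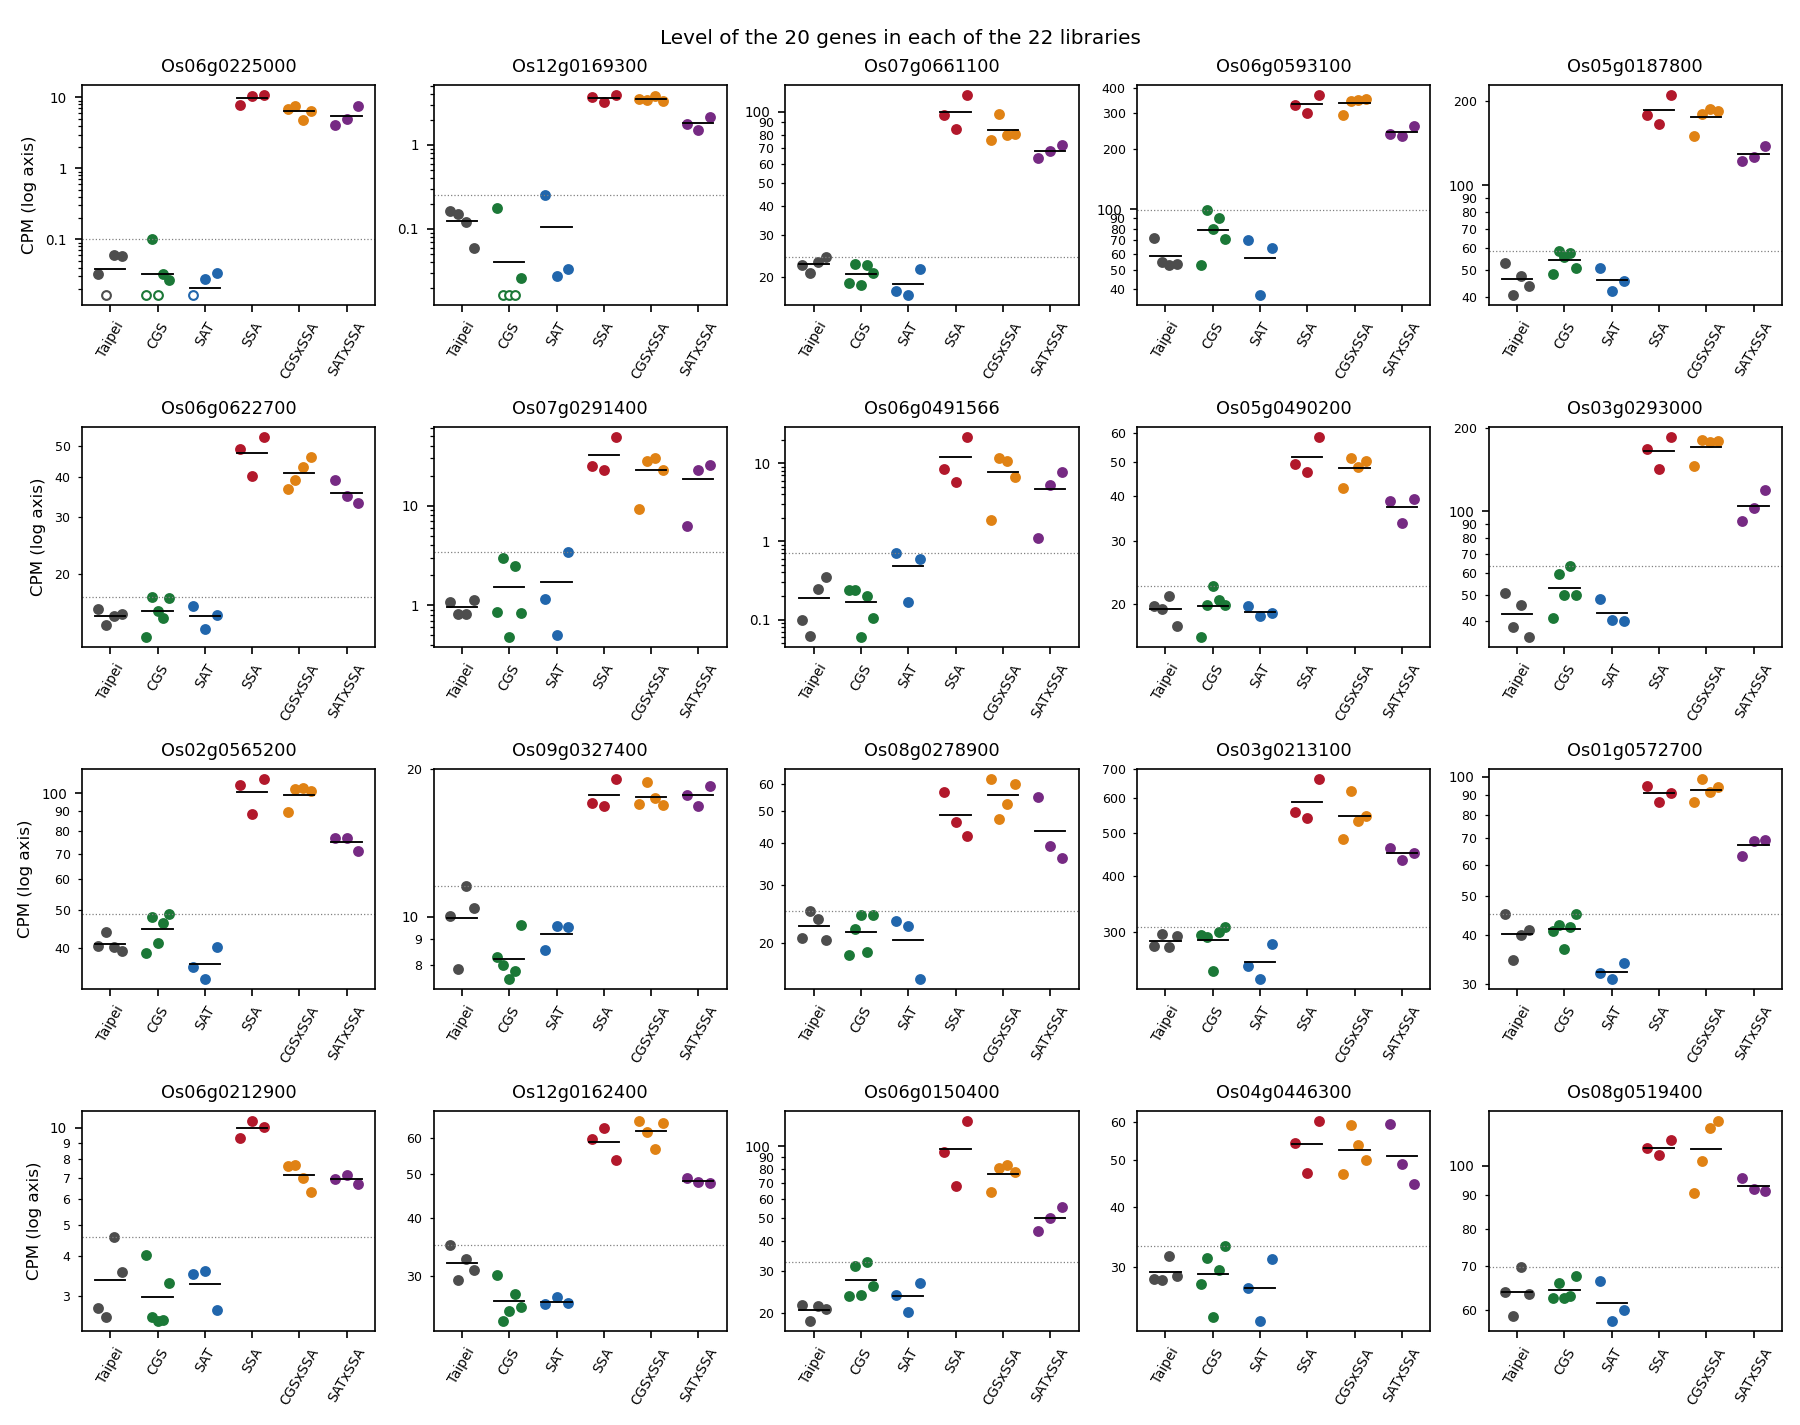
CPM of the 20 genes (1 panel each, log axis) in the 22 libraries, grouped by line, with a black bar for the line mean, a dotted line at the highest library without HaSSA and open circles at the foot of the panel for libraries with 0 reads. Every HaSSA point lies above the dotted line, by 39.8 times in Os06g0225000 and by 1.303 times in Os08g0519400, and the SATxSSA mean is the lowest of the HaSSA means in 19 panels.

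The 3 HaSSA lines were then compared with each other, to see whether the genes stood equally high when a second transgene was present. The selection was not made on this contrast, but it used the same levels. The lowest HaSSA library, on which the limits were set, was a SATxSSA library for 17 of the 20 genes. The counts of genes below are therefore a description. The 20 genes also share the same libraries and are no independent cases. By line mean, 15 of the 20 genes were highest in SSA and 5 in CGSxSSA, and 19 were lowest in SATxSSA. In 15 of the 20 genes all 3 SATxSSA libraries lay below all 3 SSA libraries, against 9.02% of all genes tested. In the edgeR quasi-likelihood fit of all libraries the log2 difference of SATxSSA against SSA was below 0 in all 20 genes (19 under RLE scaling, 20 under library size), with a median of -0.46 and a range down to -1.34, where the median of all tested genes was -0.01 and 52.3% of them were below 0. At an adjusted p under 0.01, 2 of the 20 were lower and 0 higher, while 0.459% of all genes tested were lower. DESeq2 called 8 of the 20 lower, both of these among them, with 0.705% of all genes called lower. The 8 include Os12g0169300, which passed the filter only through its HaSSA libraries. In this comparison the 24 ER folding genes were below 0 in 24 of 24, with a median of -0.35 and 3 called lower.

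Os06g0150400 was the first of the 2. It was read at 94.6, 68.5 and 128 CPM in SSA and at 44.2, 50.2 and 55.5 CPM in SATxSSA, so the groups did not overlap, and fell by 0.96 on the log2 scale (SE 0.17, adjusted p = 0.00401). Without SSA replicate 1 or 3, or SATxSSA replicate 1 or 2, its adjusted p was 0.0156, 0.0353, 0.0419 or 0.0269, and with only the libraries of both lines in the fit it was 0.184. Os01g0572700 was read at 94.6, 86.3 and 91.1 CPM in SSA and at 63.1, 68.8 and 69.2 CPM in SATxSSA and fell by 0.44 (SE 0.086, adjusted p = 0.00816). Its adjusted p ranged from 0.00334 to 0.0652 when 1 library was left out and was above 0.01 in 15 of 22 cases, and it was 0.0226 with a replicate block. With only the libraries of both lines in the fit it was 0.0667. Both calls therefore sit near the threshold. In both genes every SATxSSA library lay below every SSA library, so leaving out 1 library could not have changed the direction. Os01g0572700 was also lower in SAT than in Taipei (-0.31, SE 0.082, adjusted p = 0.0445). Its HaSSA difference with EcSAT minus without it was -0.12 (95% interval -0.37 to 0.12). Its lower level in SATxSSA is thus no measure of a smaller HaSSA difference. Another 5 genes had an adjusted p between 0.01 and 0.05: Os07g0661100 at -0.55 (SE 0.12, adjusted p = 0.0181), Os05g0187800 at -0.52 (SE 0.11, adjusted p = 0.0147), Os02g0565200 at -0.43 (SE 0.096, adjusted p = 0.0235), Os05g0490200 at -0.47 (SE 0.11, adjusted p = 0.0283) and Os03g0293000 at -0.66 (SE 0.15, adjusted p = 0.0325). At an unadjusted p under 0.05 there were 16 of the 20, against 11.1% of all genes. The 16 include Os06g0225000 and Os12g0169300, which passed the filter only through their HaSSA libraries. Since all 20 genes were read in the same libraries, the count is a description.

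For other genes SATxSSA and SSA overlapped. Os09g0327400 was read at 17.1, 16.8 and 19.1 CPM in SSA and at 17.7, 16.8 and 18.4 CPM in SATxSSA, and the 95% interval of its log2 difference, -0.23 to 0.23, spans 0. Os04g0446300 (interval -0.35 to 0.19) and Os08g0278900 (-0.51 to 0.19) were alike in this. The unmapped share, which includes HaSSA's own reads, was lower in SATxSSA (3.69% ± 0.783, SD, n = 3) than in SSA (6.26% ± 0.673, SD, n = 3) and CGSxSSA (6.98% ± 1.47, SD, n = 4), and its part in these differences was not tested.

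Between CGSxSSA and SSA the median log2 difference of the 20 genes was -0.06 (from -0.14 without SSA replicate 2 to 0.02 without SSA replicate 3) and 15 of 20 estimates were below 0, against 51% of all genes. edgeR called 0 of the 20, with 0.112% of all genes called, and DESeq2 called 0, with 0.295% of all genes called, so a count of 0 is no result about these genes. An unadjusted p under 0.05 was reached by 4, all of them lower, against 10.6% of all genes. Those 4 were Os06g0212900 (-0.48, 95% interval -0.82 to -0.13), Os06g0225000 (-0.60, -1.08 to -0.12), Os07g0661100 (-0.26, -0.49 to -0.03) and Os06g0150400 (-0.34, -0.67 to -0.01). Among them Os06g0225000 passed the filter only through its HaSSA libraries. The 9.96 ± 0.639 CPM (SD, n = 3) of Os06g0212900 in SSA stood above 7.15 ± 0.627 CPM (SD, n = 4) in CGSxSSA and 6.93 ± 0.221 CPM (SD, n = 3) in SATxSSA, without overlap of SSA with either. The intervals of Os01g0572700 (-0.13 to 0.20) and Os08g0519400 (-0.17 to 0.16) were narrow around 0, whereas that of Os07g0291400 ran from -1.64 to 0.60.

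Between the crosses, SATxSSA was lower than CGSxSSA in 19 of 20 estimates (17 under library size), with a median of -0.36 against 0.0020 over all genes. Of the 20, 2 were called lower and 0 higher, with 0.585% of all genes called lower, and DESeq2 called 6 lower, with 1.64% of all genes called lower. An unadjusted p under 0.05 was reached by 13, Os12g0169300 among them, against 17.6% of all genes. That gene, also among the 6 of DESeq2, passed the filter only through its HaSSA libraries. Os01g0572700 was read at 86.1, 98.8, 91.5 and 94.3 CPM in CGSxSSA against the 63.1, 68.8 and 69.2 CPM above, and fell by 0.47 (SE 0.081, adjusted p = 0.0021). Its adjusted p was 0.0109, 0.0218 and 0.0115 without CGSxSSA replicate 4, SATxSSA replicate 1 and SATxSSA replicate 2, and 0.0114 with a replicate block. With only the libraries compared it was 0.032, and under library size it was 0.0208. Os03g0293000 was read at 146, 182, 178 and 180 CPM in CGSxSSA and at 92.2, 103 and 119 CPM in SATxSSA and fell by 0.71 (SE 0.14, adjusted p = 0.00887). Its adjusted p ranged from 0.0047 to 0.0689 with 1 library left out, was above 0.01 in 14 of 22 cases and was 0.0321 with a replicate block. With only the libraries compared it was 0.0199. The comparison shares its SATxSSA libraries with the one against SSA, so the 2 sets of values are not independent.

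**Figure D4:**
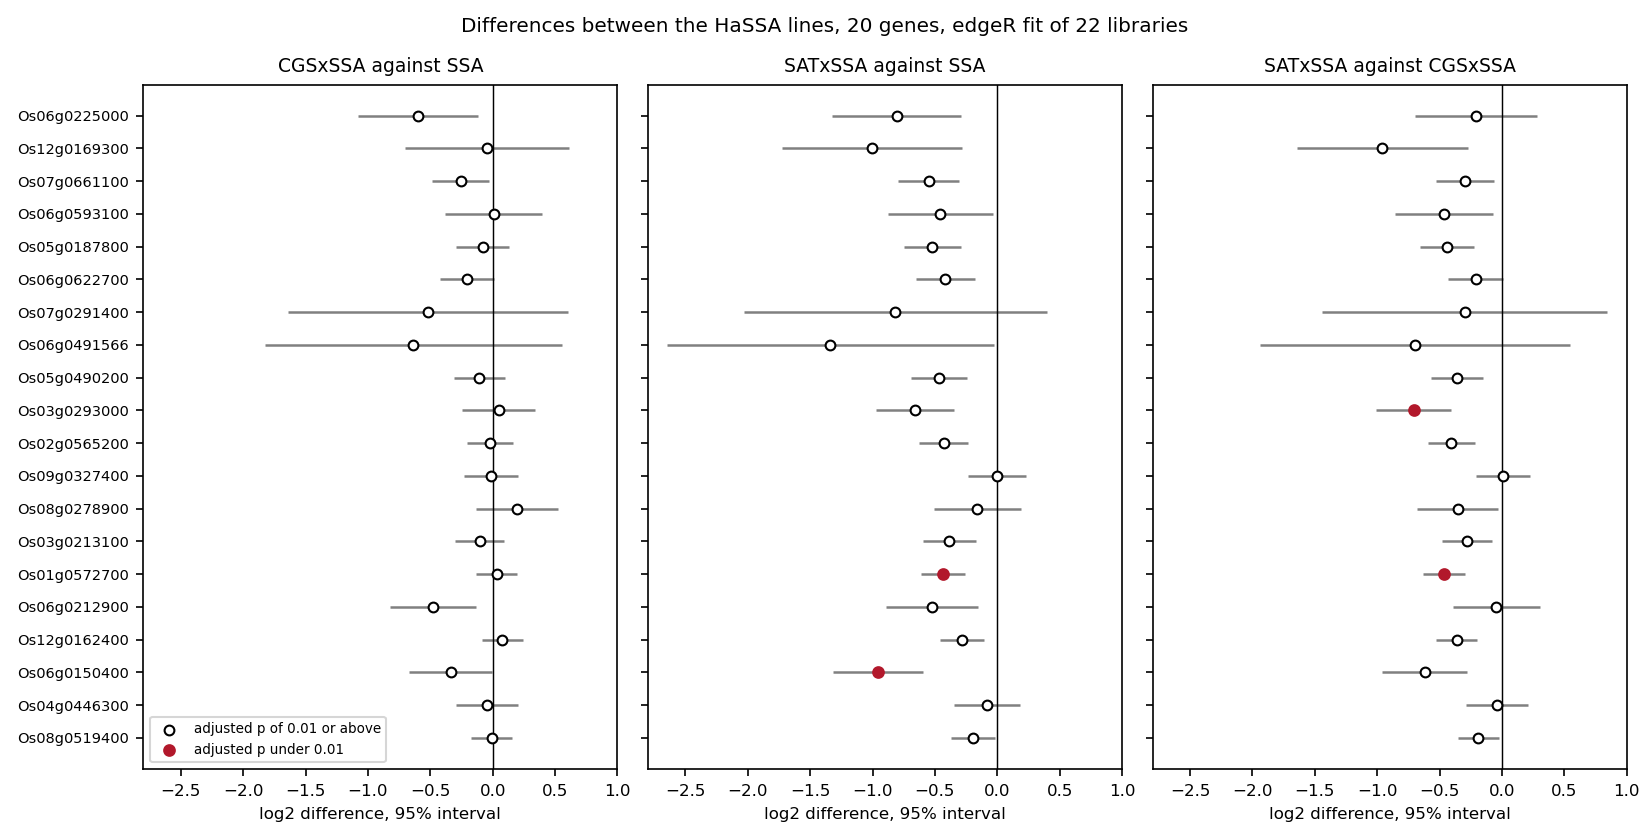
Log2 difference of each of the 20 genes (rows) with its 95% interval from the edgeR fit, for CGSxSSA against SSA, SATxSSA against SSA and SATxSSA against CGSxSSA, with filled points for an adjusted p under 0.01. Points scatter around a median of -0.06 in the first panel and lie left of 0 in the second, where Os06g0150400 and Os01g0572700 are filled.

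The CGS, SAT and Taipei levels of the 20 genes are values the selection used: a gene raised by either enzyme transgene to near its HaSSA level could not have been chosen. The comparisons of these lines are therefore given as a description, and nothing is read from the counts of calls. In CGS against Taipei the median log2 difference was 0.01. edgeR called 0 (3.68% of all genes), DESeq2 called 1 (6.24% of all genes) and 6 reached an unadjusted p under 0.05 (24.1% of all genes). The gene nearest to a call was Os12g0162400, read at 35, 29.4, 32.7 and 30.9 CPM in Taipei and at 30.2, 23.9, 25.1, 27.4 and 25.7 CPM in CGS (-0.27, SE 0.071, adjusted p = 0.0168). Of the genes with a higher estimate, Os06g0150400 (0.41, SE 0.15, adjusted p = 0.0806), Os06g0593100 (0.43, SE 0.17, adjusted p = 0.115), Os03g0293000 (0.31, SE 0.13, adjusted p = 0.13) and Os05g0187800 (0.23, SE 0.092, adjusted p = 0.124) did not pass. In SAT against Taipei the median was -0.08. edgeR called 0 (0.686% of all genes), DESeq2 called 0 (2.09% of all genes) and 3 reached an unadjusted p under 0.05 (16.6% of all genes). The nearest was Os01g0572700, read at 45, 34.6, 39.9 and 41 CPM in Taipei and at 31.9, 30.9 and 34 CPM in SAT, with every SAT library below every Taipei library (-0.31, SE 0.082, adjusted p = 0.0445). Os12g0162400 was also lower by estimate in SAT (-0.28, SE 0.081, adjusted p = 0.069). For the genes with few reads without HaSSA these differences are poorly measured, as for Os12g0169300 in CGS (-1.46, SE 0.75) and Os06g0491566 in SAT (1.305, SE 1.10).

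The size of the HaSSA difference in each background is also given as a description, since the interaction is built from the HaSSA and other levels that the selection used. With EcSAT the HaSSA difference was smaller by estimate in 18 of 20 genes (52% of all genes), with a median of -0.34 on the log2 scale. edgeR called 0 (0.25% of all genes), DESeq2 called 1 (0.869% of all genes) and 5 reached an unadjusted p under 0.05 (13.3% of all genes). For Os06g0150400 the mean was 20.7 CPM in Taipei and 97.1 CPM in SSA, but 23.6 CPM in SAT and 50 CPM in SATxSSA (interaction -1.15, SE 0.24, 95% interval -1.65 to -0.65). For Os01g0572700 it was 40.1 CPM in Taipei, 90.7 CPM in SSA, 32.3 CPM in SAT and 67 CPM in SATxSSA (interaction -0.12, SE 0.12, 95% interval -0.37 to 0.12). With AtD-CGS the HaSSA difference was smaller by estimate in 16 of 20 genes (52.7% of all genes), with a median of -0.14. edgeR called 0 (0.384% of all genes), DESeq2 called 0 (1.18% of all genes) and 3 reached an unadjusted p under 0.05 (15.3% of all genes). Os06g0150400 stood at 27.5 CPM in CGS and 76.8 CPM in CGSxSSA (-0.75, SE 0.22), and Os12g0162400 at 26.5 and 62 CPM (0.35, SE 0.11). Genes with few reads without HaSSA enter these medians with wide errors, such as Os06g0491566 with EcSAT (-2.64, SE 1.26). Both interactions use the same SSA and Taipei libraries.

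Per library, 17 genes with at least 100 reads in Taipei were summarised by the median of their log2 ratio to the Taipei mean. This median was 1.27 to 1.58 in SSA, 1.17 to 1.37 in CGSxSSA and 0.91 to 1.05 in SATxSSA, and it lay between -0.15 and 0.11 in the 12 other libraries. The selection required a distance from the other libraries. The same median over the 24 ER folding genes was 0.70 to 0.90 in SSA, 0.75 to 0.84 in CGSxSSA and 0.37 to 0.48 in SATxSSA, against -0.16 to 0.17 elsewhere. Those 24 genes were not chosen by these limits, so the sizes of the medians are not comparable between the sets. In both sets SATxSSA stood below the other HaSSA lines without overlap. Within SSA and within CGSxSSA the library with the lowest unmapped share also had the lowest median of the 17 genes (SSA replicate 2, 5.55% unmapped, and CGSxSSA replicate 1, 4.81% unmapped), whereas within SATxSSA it was replicate 1 for the unmapped share and replicate 2 for the genes. SSA replicate 2 was the lowest SSA library in 16 of the 20 genes, and CGSxSSA replicate 1 the lowest of its line in 14.

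**Figure D5:**
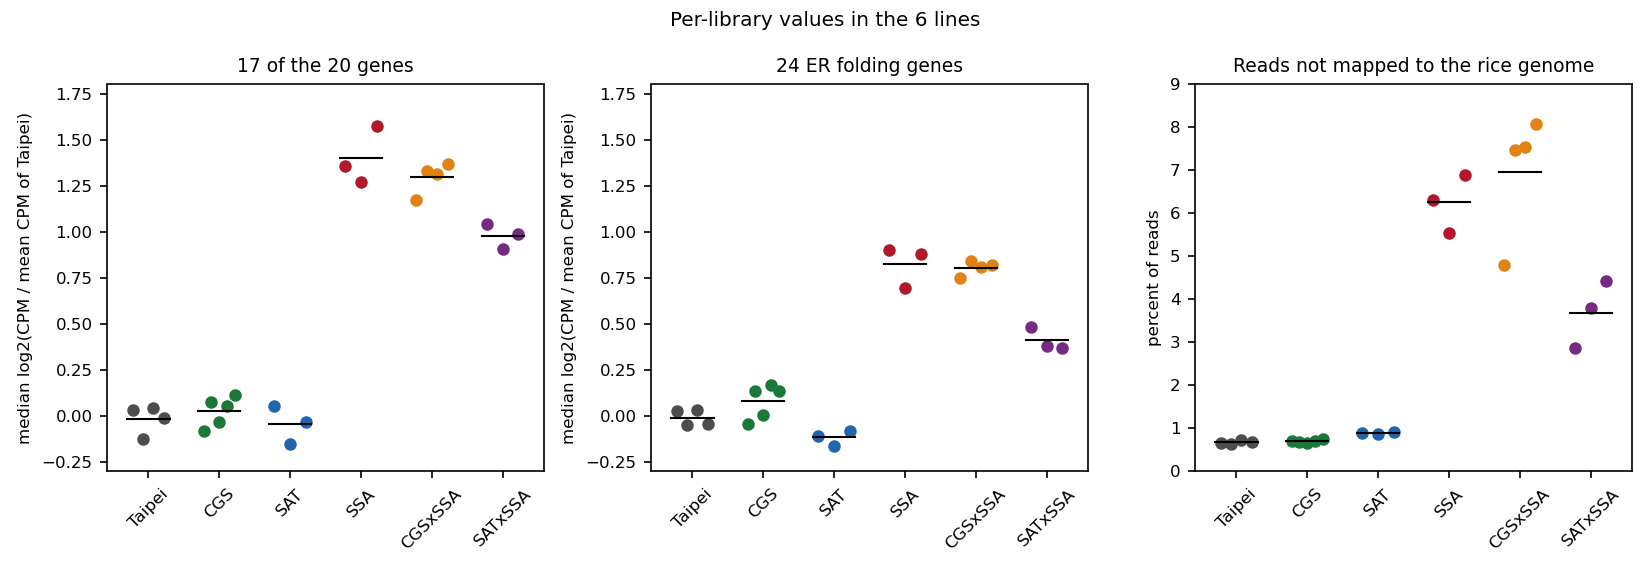
Each point is 1 library and each bar a line mean: median log2 ratio to the Taipei mean over 17 of the 20 genes (left) and over 24 ER folding genes (middle), and percent of reads not mapped (right). SATxSSA lies between the other HaSSA lines and the lines without HaSSA in all 3 panels, at 0.91 to 1.05, 0.37 to 0.48 and 2.87% to 4.42%. In the left panel the selection required the distance from the lines without HaSSA.

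By identifier, which names the chromosome, 6 of the 20 genes lie on chromosome 6, where 8.02% of the tested genes lie, and none lies on chromosomes 10 or 11. They are not adjacent. Of the 40 genes next to them in identifier order, 0 are among the 20 and 0 had all HaSSA libraries above the others. Of all genes tested 0.339% had, so these counts of 0 are no result about the neighbours. Some neighbours, such as Os06g0592951, had no reads in any library. For Os06g0225000 the neighbours Os06g0224900 (3.66 CPM without and 4.36 CPM with HaSSA, as means) and Os06g0225100 (0.953 and 1.02 CPM) overlapped between the groups, as did Os12g0169400 next to Os12g0169300 (18.2 and 15.2 CPM). Among the 20 genes 3, Os03g0213100, Os12g0162400 and Os06g0593100, lost reads when strand was ignored, to 0.0804, 0.172 and 0.753 of the strand-specific count, and 19.4% of all genes with at least 1000 reads fell under 0.9. In unstranded counting, a read that overlaps genes on both strands is assigned to neither, so the levels of these genes rest on the strand-specific protocol. Apart from Os06g0225000, the opposite strand held at most 1.24% of the reads at any of the 20 genes in either set of libraries.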

How the data were processed

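Strand-specific, rRNA-depleted single-end libraries were made by the authors from seeds of individual panicles, so p-values measure the spread between plants of a line, where each cross holds a pair of sister lines that the labels do not tell apart. The authors mapped reads to the rice build IRGSP-1.0 with STAR 2.7.1a. Its gene counts were deposited without normalization, once ignoring strand and once for each strand. Anti-strand counts were used here, as in the study. Transgene reads were not analysed here. CPM used TMM factors from all 38866 genes. edgeR 4.0.16 in R 4.3.3 (filterByExpr, robust quasi-likelihood fit of 22 libraries with line as factor, Benjamini-Hochberg adjustment, threshold 0.01) tested 26821 genes. The code was tested on simulated data. DESeq2 1.42.0 and other scalings, filters, strands, blocks and left-out libraries were alternatives. Ratios of pooled reads carry exact conditional binomial intervals. Marker lists came from general knowledge. The naming rule allowed 2 identifiers a direction where nothing annotates them, but the 20 genes are the subject and all are given; other identifiers were chosen after their values were seen. Members and lists were chosen with earlier results of these data known. Keyword lists, promoters and sequences were not used here, since the reference table matched 1 of 38866 identifiers and none of the 20.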

Additional observations from a re-analysis of the deposited data

Results flagged for a closer look

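Within lines of 4 or 5 libraries, 60 combinations of gene and line were checked for a library far from the others, of which chance marks about 1 in 20, and 7 were marked. CGSxSSA replicate 1 was the low library in 3 of them: Os03g0293000 at 146 CPM against 178 to 182 CPM in the other 3, Os02g0565200 at 89.5 CPM against 101 to 103 CPM, and Os06g0593100 at 296 CPM against 346 to 354 CPM. The same library had the lowest unmapped share of its line, whose part was not tested. The others were Os06g0593100 in Taipei replicate 1 (71.8 CPM against 53 to 54.7 CPM), Os04g0446300 in Taipei replicate 3 (31.7 against 28.2 to 28.8 CPM), Os03g0213100 in CGS replicate 3 (245 against 292 to 308 CPM) and Os12g0169300 in CGS replicate 1 (0.177 against 0 to 0.0263 CPM). Among data outside the gene counts, the share of reads not mapped to rice was at least 2.87% in every HaSSA library and 0.63% to 0.92% in the others.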

How the results depend on the processing

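The number of genes was 37 under library size without TMM, 9 with a ratio of at least 1.5 and 5 with a ratio of at least 2, and 20 to 26 with 1 library left out. Without CGSxSSA replicate 4 only 19 of the 20 were kept, and otherwise all 20 were. Unstranded counts gave 22 genes and kept 18 of the 20. With TMM factors from the tested genes, an alternative added after seeing the data, the number was 19, as under RLE, without Os08g0519400. Genes called in SATxSSA against SSA numbered 8 with DESeq2, 1 under RLE, 7 at an adjusted p under 0.05, 0 with only the libraries compared and 0 to 4 with 1 library left out (0 without SSA replicate 1 or 3 or SATxSSA replicate 1 or 2, 4 without SSA replicate 2). In SATxSSA against CGSxSSA they numbered 6 with DESeq2, 1 under library size, 6 at 0.05, 0 with only the libraries compared and 0 to 3 with 1 left out (0 without CGSxSSA replicate 4 or SATxSSA replicate 1 or 2). With a replicate block the counts in these 2 comparisons were 1 and 0, and the block changed no other count. Nothing in the sources says that the replicate numbers pair samples: same-numbered libraries of different lines deviated with a mean r of -0.014 over 48 pairs, and 0 of 22 libraries were most like one of their own number. CGS against Taipei gave 1 with DESeq2 and 1 at 0.05 (0 to 1 with 1 left out), SAT against Taipei 1 at 0.05, and the EcSAT interaction 1 with DESeq2 and 1 at 0.05 (0 to 1). Of 189 medians, 186 moved by less than the 0.096 SD between libraries. The exceptions were -0.16 for CGSxSSA against SSA and -0.24 for the AtD-CGS interaction under library size, and -0.023 for that interaction without SSA replicate 3 (range -0.23 to -0.023). Of all 189, 5 changed sign: CGSxSSA against SSA, at 0.02 without SSA replicate 3, and CGS against Taipei, at -0.0058 with the replicate block and at -0.013 to -0.0018 without Taipei replicate 2, CGS replicate 5 or CGSxSSA replicate 4. The median for SAT against Taipei ran from -0.11 to -0.011 with 1 library left out. The causes were not tested. Counts of 0 to 22 reads without HaSSA limit the precision of 3 genes.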
